A study of Mus musculus with 3 samples.

Results

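Mouse chromosome 12 carries an imprinted domain that runs from Dlk1 to Dio3 and holds a dense array of microRNAs. MicroRNA rows of this array were examined in the small RNA counts of mouse livers that were sham operated (Sham), made ischemic while warm (WI), or made ischemic and then reperfused (IR). Members were chosen by name, as all rows of 48 listed miR numbers with any arm or letter, and the rule uses no measured value. The rule found 103 of the 1908 mature microRNA rows in the counts. At least 1 read was present for 60 of them, a share of 58.3%, where 44.6% of all rows had a read.

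Livers came from male C57BL/6J mice aged 8 to 10 weeks, and the labels name no genetic change in any group. Sham mice had the abdomen opened without vascular clamping and were killed after a wait as long as the clamping. In the WI mice the vessels to the left and median lobes were clamped and the liver was taken at the end of clamping, and in the IR mice the clamp was removed and blood returned before sampling. Reperfusion cannot be told apart from time since surgery, which was longest for IR. Each group was represented by 1 library, and the Sham, WI and IR libraries held 3844133, 5064014 and 3784539 microRNA reads. Whether RNA of several mice was pooled was not stated, and no difference below has a replicate check.

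Imprinted genes are expressed from the chromosome of only 1 parent. In this domain the protein-coding genes Dlk1, Rtl1 and Dio3 are read from the paternal chromosome, while the maternal chromosome produces the long noncoding RNAs Meg3, Rian and Mirg and a transcript antisense to Rtl1. Most of the microRNAs are cut from these maternal transcripts, so that many hairpins share a precursor. They are abundant in embryo, placenta and brain and are known to be low in adult liver. Within the set, miR-127 and miR-136 lie opposite Rtl1 and pair with its transcript perfectly, and miR-134 is known for its work in dendritic spines of neurons.

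Mature sequences from RefSeq (GRCm38) were matched by name for 99 of the 103 rows. The rows without an entry were miR-376c-3p, miR-485-5p, miR-487b-3p and miR-539-3p. Of the 99, 98 lie on chromosome 12 over 714 kb, from chr12:109563710-109563731 (miR-770-5p, plus strand) to the minus-strand arms of miR-1247, and 1 does not belong to the domain. That row, miR-496b, is on chromosome 19 (chr19:16314894-16314915) and had no reads. The 9 rows that passed the calling criteria in at least 1 comparison are shown 5′ to 3′, together with the uncalled miR-136-3p. The seed (bases 2 to 8, which pair with targets) is in capitals.

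miR-127-3p: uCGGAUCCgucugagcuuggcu
miR-434-3p: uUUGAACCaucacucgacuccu
miR-136-3p: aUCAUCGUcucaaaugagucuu
miR-411-5p: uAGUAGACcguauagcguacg
miR-376b-3p: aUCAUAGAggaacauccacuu
miR-300-3p: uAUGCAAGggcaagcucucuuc
miR-381-3p: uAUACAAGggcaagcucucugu
miR-541-5p: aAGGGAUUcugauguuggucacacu
miR-1247-5p: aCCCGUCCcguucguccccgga
miR-1247-3p: cGGGAACGucgagacuggagc

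Few of the members with a sequence shared a seed. The 99 sequences held 92 different seeds, and only 7 seeds occurred in more than 1 member, each in a pair such as miR-379-3p with miR-411-3p (AUGUAAC). None of the 9 called rows shared its seed with another of the 99. The members without a RefSeq entry were not compared. Among the other listed microRNAs with a RefSeq sequence, only miR-7229-5p had the seed of a called row, that of miR-411-5p, and it had 0 reads. MiR-300-3p and miR-381-3p differ at 3 of 22 positions, G4A, U21G and C22U, counted from the 5′ end with the base of miR-300-3p first. Their reads were nearly equal. The genome alignment kept only best matches, which the base at position 4 can tell apart, and how the counting step assigned their reads was not examined.

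The locus was divided into 5 stretches, and reads were concentrated in a few hairpins of 3 of them. The Rtl1 stretch (miR-673 to miR-136) took 54.2% of the 4991 member reads, the Mirg cluster (miR-379 to miR-3072) took 38.5% and the Dio3 end (miR-1247) took 7.03%. The Rian region gave 12 reads, all of miR-341-3p, and miR-770 in an exon of Meg3 gave 0. MiR-127-3p alone held 44.5% of member reads, and the 5 rows with most reads held 81%. On the chromosome, 40 of 51 hairpins had a read, and the 11 without were miR-770, miR-3071, miR-370, miR-1197, miR-679, miR-539, miR-3072, miR-544, miR-668, miR-377 and miR-412.

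**Figure D1:**
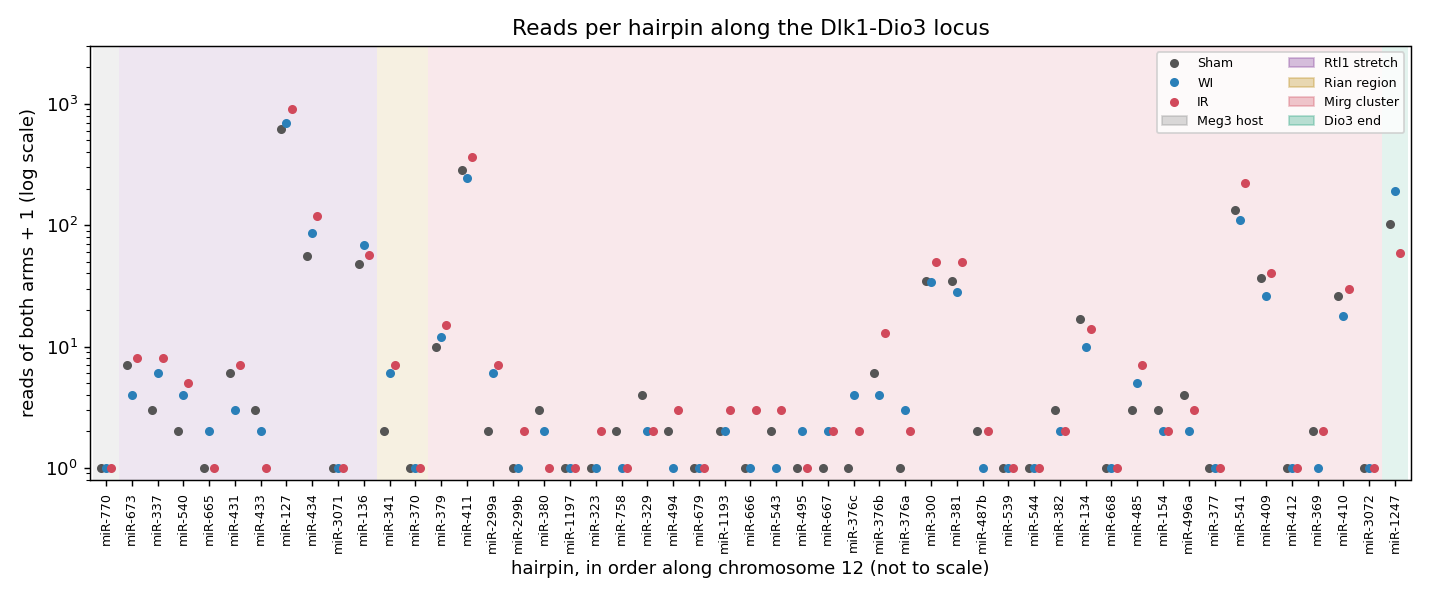
Reads of both arms plus 1 (log scale) for 51 hairpins in their order along chromosome 12, with 1 point for each library and shading for the stretch. MiR-127, miR-411 and miR-541 have most reads, miR-1247, miR-434 and miR-136 follow, and many hairpins have few or none.

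Members were rare in every library. They made up 0.0374% of microRNA reads for Sham (95% Wilson interval 0.0355 to 0.0393), 0.0308% for WI (0.0294 to 0.0324) and 0.0527% for IR (0.0504 to 0.0550). A read was present for 41 member rows in Sham, 43 in WI and 48 in IR, and for 28 rows in all 3 libraries. Only 22 rows reached 10 reads over the 3 libraries, and 38 had 1 to 9. A floor of 3 reads corresponded to 0.758, 0.617 and 0.785 normalized reads per 1000000 (CPM, scaled by the trimmed mean of M values, TMM) for Sham, WI and IR. For most rows a difference between libraries was thus not detectable at this depth. Intervals and floors cover counting error only.

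The tissue label was checked against microRNA markers of cell types. Hepatocyte miR-122-5p was at 15960, 18999 and 15364 CPM for Sham, WI and IR. The summed markers of stroma (5 rows) and endothelium (2 rows) were also abundant. Single stromal rows ran from 40.2 CPM (miR-214-3p) to 38597 CPM (miR-143-3p) in Sham. None of the stromal, endothelial or 2 hepatocyte markers was called in any comparison. Markers of muscle (5 rows, summed 6.82, 25.1 and 76.1 CPM in Sham, WI and IR) and of neurons (5 rows, 1.52, 2.67 and 9.94 CPM) were scarce. Of the 5 leukocyte markers 3 were listed under the names used.

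In total the domain was lowest in WI and highest in IR. Summed member reads were 1436, 1562 and 1993 for Sham, WI and IR, or 363, 321 and 521 CPM. The IR sum was 1.62 times that of WI (95% counting interval 1.52 to 1.74) and 1.44 times that of Sham (1.34 to 1.54), and the WI sum was 0.885 times that of Sham (0.824 to 0.952). Scaled to reads aligned to the genome, the log2 ratio of IR to WI was 0.37 in place of 0.70, and that of WI to Sham was -0.02 in place of -0.18. Of 22 members with at least 10 reads, 15 had their highest level in IR (68.2%, against 37.0% of all 449 microRNAs with the same minimum) and 13 had their lowest in WI (59.1% against 28.5%).

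Ischemia was compared with sham operation to ask what clamping alone does. Among 53 tested members, miR-1247-5p was the only one that rose past the thresholds, which were a change over 1.5-fold together with a Fisher's exact p below 0.01. That is 1.89% of members, close to the 1.92% called among all 782 microRNAs tested. Among members with at least 10 reads over both libraries it was 1 of 16 beside 3.41% of all microRNAs with that minimum. Of the 16, 11 lay below Sham, and their median log2 fold change was -0.24 (0.04 over all microRNAs). The direction of the calls turned with scaling. With library totals, or with the 10 most abundant microRNAs left out of these, the call of miR-1247-5p was lost and miR-411-5p and miR-541-5p were called lower. The calls over all microRNAs with the minimum of 10 reads, 10 higher and 4 lower with TMM, were then 7 and 10 or 7 and 9. They were 9 and 6 with DESeq2 size factors, where miR-541-5p was also called lower, and 22 and 2 with genome-aligned totals. Each test compares the reads of 2 libraries and not 2 conditions.

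The stretches did not move alike after ischemia. The Mirg cluster had 597 reads in Sham and 502 in the deeper WI library, so that its level in WI was 0.684 times that in Sham (counting interval 0.607 to 0.772). The Rtl1 stretch had 736 and 864 reads, a ratio of 0.956 (0.865 to 1.06). The Dio3 end had 102 and 191 reads, a ratio of 1.52 (1.19 to 1.96). Of reads of the Mirg cluster and the Rtl1 stretch together, a measure that does not depend on scaling, the Mirg cluster took 44.8% for Sham (Wilson interval 42.1 to 47.5), 36.7% for WI (34.2 to 39.3) and 42.6% for IR (40.4 to 44.8). Its share in WI therefore lay below both others by more than counting error. Hairpins of a stretch may share a precursor, which was not examined here, and are not taken as independent measurements.

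**Figure D2:**
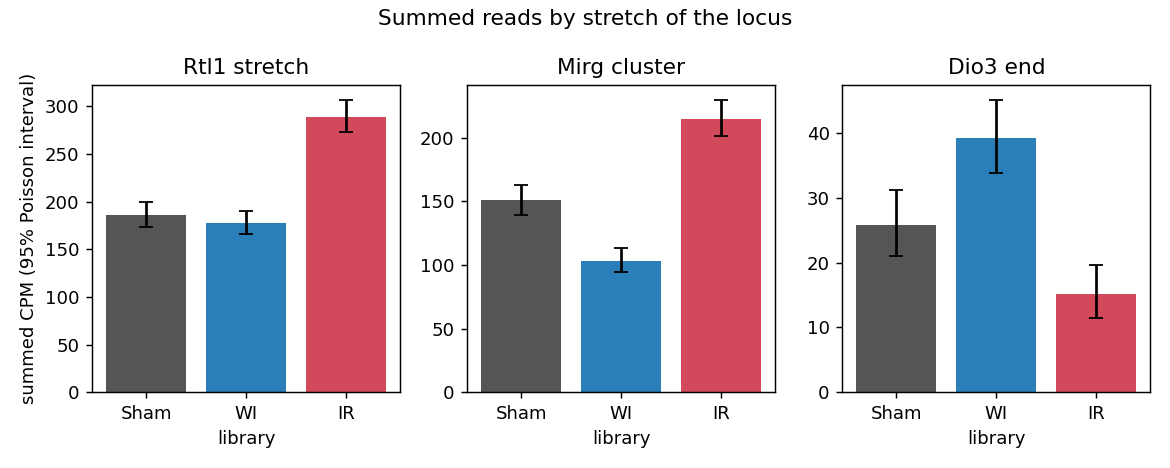
Summed TMM-normalized CPM of the Rtl1 stretch, the Mirg cluster and the Dio3 end in the 3 libraries, with bars from 0 and 95% Poisson intervals. The Mirg cluster and the Rtl1 stretch are highest in IR, while the Dio3 end is highest in WI and lowest in IR, and each panel has its own scale.

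Reperfusion was then compared with ischemia. Of 55 tested members 9 were called (16.4%), with 7 higher and 2 lower in IR, where 9.25% of all 789 microRNAs were called (49 higher and 24 lower). Among members with at least 10 reads, 9 of 19 were called (47.4%), beside 17.3% of 422 microRNAs. The 7 that rose all lie in the Rtl1 stretch or the Mirg cluster, and the 2 that fell are the arms of miR-1247. Among the 7 are the near-identical miR-300-3p and miR-381-3p, which may not be separate measurements. The median log2 fold change of the 19 was 0.84, beside -0.03 over the 422. With genome-aligned totals 5 of the 9 calls were kept (miR-411-5p, miR-541-5p, miR-376b-3p and both arms of miR-1247), and calls over all microRNAs turned to 38 higher and 73 lower. When a coefficient of variation of 0.2 between animals, which was not measured, was put into edgeR's exact test, 3 of the 9 calls were kept (miR-541-5p, miR-376b-3p and miR-1247-3p), and with 0.4 none.

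Against Sham, 4 of 56 tested members were called in IR (7.14%, beside 7.11% of all 774 microRNAs). With at least 10 reads it was 4 of 19 (21.1%), beside 13.4% of all microRNAs with that minimum. MiR-127-3p, miR-434-3p and miR-541-5p rose, and miR-1247-3p fell. The median of the 19 was 0.40 on the log2 scale and that of all microRNAs was 0.01. The WI library is part of one comparison and the Sham library of the other, and both share the IR library, so they are not independent.

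**Figure D3:**
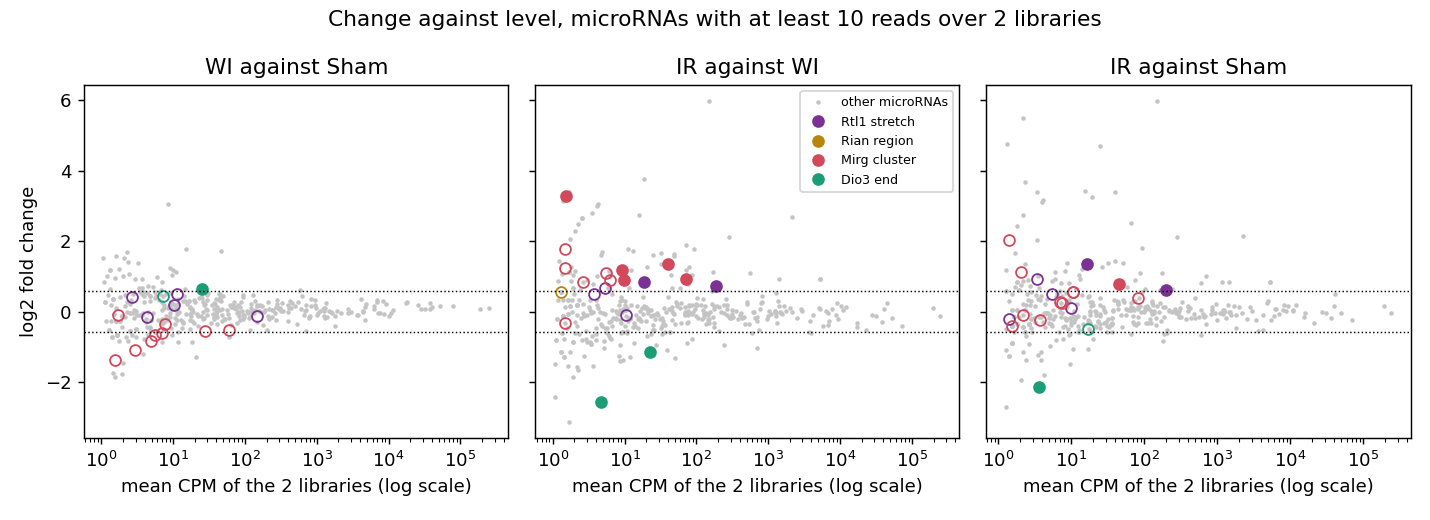
Log2 fold change against mean CPM (log scale) for microRNAs with at least 10 reads over the 2 libraries of each comparison, with members colored by stretch, filled where called and open where not, other microRNAs in gray, and dotted lines at 1.5-fold. Filled members of the Rtl1 stretch and the Mirg cluster lie above the upper line in IR against WI, and the filled Dio3 end members lie below the lower line.

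In the Rtl1 stretch, hairpins of miR-431, miR-433, miR-127, miR-434 and miR-136 lie antisense to an Rtl1 exon in the GENCODE annotation of NCBIM37, and miR-673, miR-337, miR-540 and miR-665 lie upstream of them. MiR-127-3p (chr12:109592888-109592909, plus strand) had 618, 692 and 909 reads for Sham, WI and IR, the order used below, or 156, 142 and 238 CPM. It ranked 105th, 110th and 94th among all microRNAs in these libraries. The log2 fold change from Sham to WI was -0.13 with a 95% counting interval of -0.29 to 0.03 (Fisher's exact p = 0.0956), while IR lay above both.

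From WI to IR miR-127-3p rose by 0.74 on the log2 scale (SE 0.0728, Fisher's exact p = 1.50e-24). From Sham to IR it rose by 0.61 (SE 0.0752), a fold change of 1.52, which was just past the threshold. That last call was made with TMM only. The log2 fold change was 0.58 both with the size factors of DESeq2 and with library totals, 0.54 with the 10 most abundant microRNAs left out of the totals and 0.44 with genome-aligned totals, all below 1.5-fold. Each of these still exceeded counting error (Fisher's exact p of 7.25e-15, 8.88e-15, 3.78e-13 and 4.23e-09).

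MiR-434-3p (chr12:109594565-109594586) had 37, 65 and 92 reads, or 9.34, 13.4 and 24.1 CPM. Its lowest level was in Sham, where that of miR-127-3p was in WI. For miR-434-3p the log2 fold change from Sham to WI was 0.51, within counting error (counting interval -0.09 to 1.14, Fisher's exact p = 0.0904). This interval overlaps that of miR-127-3p (-0.29 to 0.03), so a different order of the libraries was not established for miR-434-3p. IR exceeded Sham by 1.36 on the log2 scale (SE 0.281, Fisher's exact p = 3.63e-07) and WI by 0.84 (SE 0.234, Fisher's exact p = 2.75e-04). Its partner arm miR-434-5p had 18, 20 and 25 reads and was not called.

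The neighboring miR-136-3p (chr12:109595366-109595387) had 38, 53 and 39 reads, or 9.60, 10.9 and 10.2 CPM. Its levels lay within each other's counting intervals, and its log2 fold change from WI to IR was -0.09 with a 95% counting interval of -0.73 to 0.53. The interval of miR-434-3p in the same comparison was 0.37 to 1.33 and overlaps it. MiR-136-5p had 9, 15 and 17 reads and was not called. Without miR-127-3p the stretch had 29.8, 35.4 and 51.8 CPM, so that IR was highest there too, and the ratio of WI to Sham was 1.19 (0.933 to 1.51).

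The other rows of this stretch had few reads. MiR-673-5p had 6, 3 and 5 reads, miR-337-5p had 2, 4 and 5, and miR-431-5p had 3, 2 and 5. MiR-127-5p, the minor arm of the most abundant hairpin, had 0, 4 and 1. MiR-3071 is encoded on the strand opposite miR-136, at nearly the same bases, and no read was assigned to it.

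The numbers of the Mirg cluster take in 75 of the 103 rows, miR-496b of chromosome 19 among them, and 40 of these had a read. The cluster is named for Mirg, but its hairpins from miR-379 to miR-485 lie before the start of Mirg in RefSeq. Its member with most reads was miR-411-5p (chr12:109710190-109710210), with 283, 243 and 361 reads, or 71.5, 49.9 and 94.4 CPM. The intervals of the 3 levels did not overlap. It rose by 0.92 from WI to IR (SE 0.12, Fisher's exact p = 8.21e-15). From Sham the log2 fold change was -0.52 to WI (SE 0.126, Fisher's exact p = 4.39e-05) and 0.40 to IR (SE 0.115, Fisher's exact p = 4.46e-04), and both were under 1.5-fold. The fall from Sham to WI was called with library totals (-0.62) and with totals that leave out the 10 most abundant microRNAs (-0.60).

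MiR-541-5p (chr12:109742422-109742446), 25 bases long and in an intron of Mirg, showed the same order with 132, 110 and 221 reads, or 33.3, 22.6 and 57.8 CPM. IR exceeded WI by 1.35 on the log2 scale (SE 0.168, Fisher's exact p = 1.18e-16) and Sham by 0.79 (SE 0.159, Fisher's exact p = 3.76e-07). From Sham to WI its log2 fold change was -0.56 (Fisher's exact p = 0.00288), short of 1.5-fold, and it was called lower with DESeq2 size factors (-0.60), library totals (-0.66) and totals without the 10 most abundant (-0.64). Its 3p arm had 0 reads.

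MiR-300-3p (chr12:109724363-109724384) had 34, 33 and 49 reads. MiR-381-3p (chr12:109726870-109726891) had 34, 27 and 49. The values in Sham and in IR were thus identical in this near-identical pair. From WI to IR they rose by 0.91 (SE 0.325, Fisher's exact p = 0.00513) and 1.19 (SE 0.346, Fisher's exact p = 4.49e-04). MiR-300-3p was no longer called when the libraries were thinned to the smallest total. The log2 fold change of each in IR against Sham was 0.57 and was not called.

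MiR-376b-3p (chr12:109723508-109723528) had 5, 1 and 11 reads, the fewest of the 7 that rose from WI to IR. The ratio of IR to WI had a 95% counting interval of 1.02 to 9.23 on the log2 scale (Fisher's exact p = 8.59e-04). A read count of 1 in WI lies under the floor of 3. The related miR-376a-3p had 0, 2 and 1 reads and miR-376c-3p 0, 3 and 1.

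At the distal end of the cluster, miR-409-3p had 27, 21 and 31 reads and miR-410-3p had 25, 17 and 29. Both were lowest in WI, but neither passed the thresholds, with Fisher's exact p of 0.0255 and 0.0111 for IR against WI. Against Sham the lower level in WI was within counting error for both (Fisher's exact p of 0.146 and 0.063). MiR-134-5p had 16, 9 and 13 reads and no called difference. Leaving miR-411-5p out, the rest of the cluster had 79.3, 53.2 and 121 CPM and kept the order WI, Sham, IR.

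Reads were very uneven between neighboring hairpins. MiR-379-5p, from the hairpin just before miR-411 on the same strand, had 7, 8 and 5 reads where miR-411-5p had at least 243. Its partner arm miR-379-3p had 2, 3 and 9. Levels of different microRNAs in small RNA libraries also reflect how well each sequence is ligated, so these are levels within the method.

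**Figure D4:**
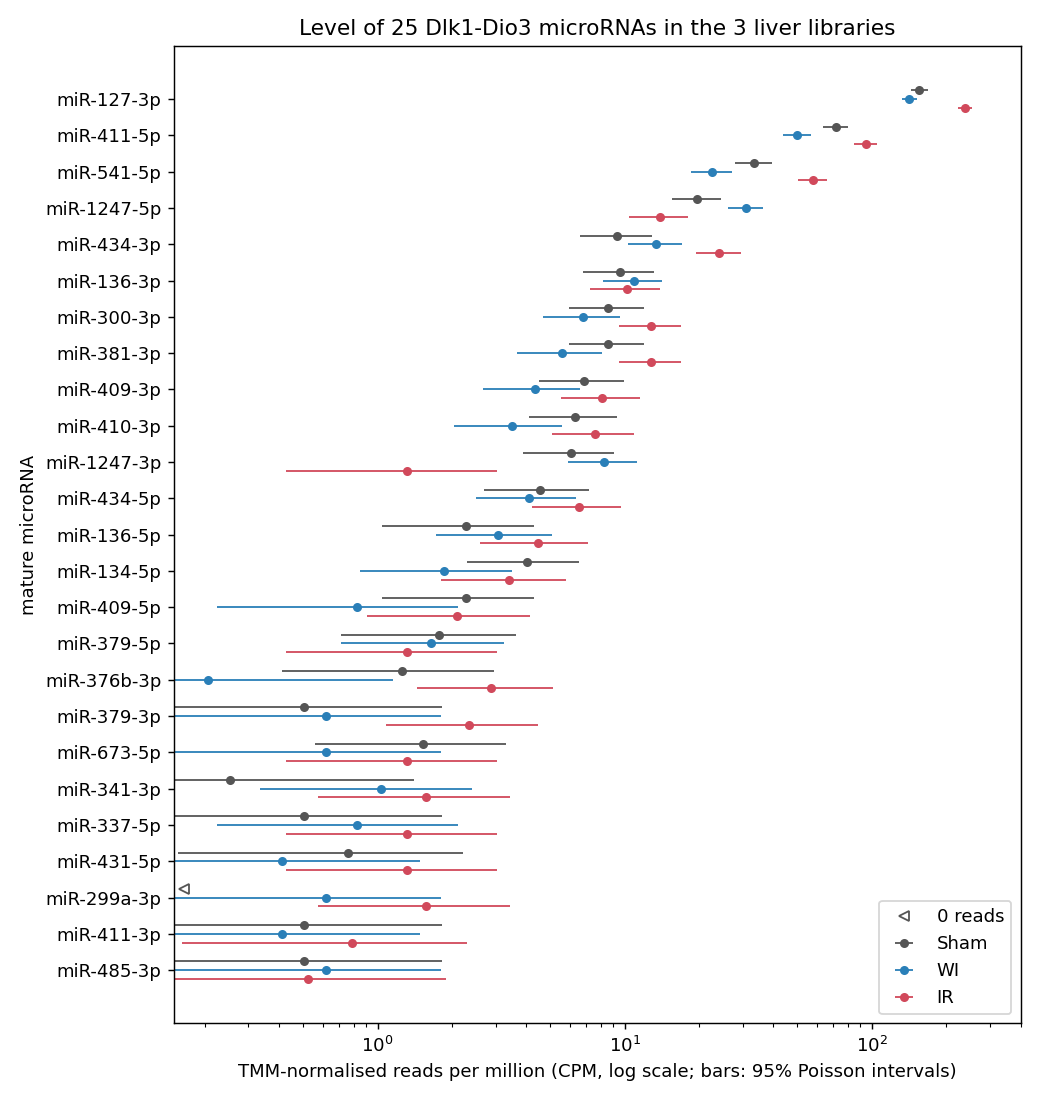
TMM-normalized CPM (log scale) of the 25 members with most reads in Sham, WI and IR, with 95% Poisson intervals; the open triangle marks 0 reads. The IR point lies right of WI for miR-127-3p, miR-411-5p, miR-541-5p and miR-434-3p with separate intervals, and left of it for both arms of miR-1247.

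Both arms of miR-1247 fell from WI to IR, where the 7 other called members rose. Its hairpin lies 530 kb beyond miR-3072, on the minus strand, and overlaps an exon of the noncoding Dio3os in the GENCODE annotation. Dio3 itself encodes the deiodinase that inactivates thyroid hormone. MiR-1247-5p (chr12:110278094-110278115) had 78, 151 and 53 reads, or 19.7, 31.0 and 13.9 CPM. It was highest in WI and lowest in IR.

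From Sham to WI miR-1247-5p rose by 0.65 on the log2 scale (SE 0.201, Fisher's exact p = 0.00109), or 1.57-fold. From WI to IR it fell by 1.16 (SE 0.230, Fisher's exact p = 1.32e-07). The rise was not called with library totals (0.55) or when the 10 most abundant microRNAs were left out of them (0.57), nor at the coefficient of variation of 0.2. IR against Sham was -0.50 (Fisher's exact p = 0.0542) and was called with genome-aligned totals only (-0.67).

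MiR-1247-3p (chr12:110278058-110278078) had 24, 40 and 5 reads, or 6.06, 8.22 and 1.31 CPM. It followed the order of its partner arm. It fell by 2.56 from WI to IR (SE 0.684, Fisher's exact p = 2.86e-06) and, compared with Sham, fell by 2.13 (SE 0.709, Fisher's exact p = 5.75e-04). With both arms left out, the summed log2 ratio of IR to WI over the remaining 101 rows was 0.84 in place of 0.70.

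The choice of arm was examined within libraries, where scaling plays no part. Of 51 hairpins with both arms listed, 20 had reads of both, 20 of 1 arm and 11 of neither. MiR-127 gave at least 99.4% of its reads from the 3p arm and miR-411 at least 99.2% from the 5p arm in each library. MiR-1247 gave 76.5% from its 5p arm for Sham (Wilson interval 67.4 to 83.6), 79.1% for WI (72.7 to 84.2) and 91.4% for IR (81.4 to 96.3). All 3 intervals overlap. MiR-434 (67.3%, 76.5% and 78.6% from the 3p arm) and miR-136 (80.9%, 77.9% and 69.6% from the 3p arm) also had intervals that overlapped among libraries. Of the 12 hairpins with at least 30 reads, only miR-379 had another major arm in 1 library, with 77.8% from the 5p arm for Sham (45.3 to 93.7), 72.7% for WI (43.4 to 90.3) and 35.7% for IR (16.3 to 61.2). These shares rest on 9, 11 and 14 reads, and their intervals overlap.

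Some markers of other cell types also differed between the libraries, not all in the same order as the members. The muscle list was higher in WI and in IR, which came from miR-133a-3p (27, 115 and 280 reads), the single called marker of 5, while miR-1a-3p had 0, 1 and 6 reads and miR-206-3p 0, 0 and 1. In the neural list miR-9-5p (3, 4 and 29 reads) was the single called marker of 5 and was higher in IR, with miR-124-3p at 0, 0 and 4 reads and miR-124-5p at 0 throughout. The 2 erythroid markers summed to 1117, 1066 and 1961 CPM, with 1 called higher in IR against WI and 2 against Sham. Of the 3 listed leukocyte markers, miR-223-3p had 110, 109 and 236 CPM and was called higher in IR against both others. MiR-223-5p (9.85, 11.3 and 5.75 CPM) was called lower in IR against WI, and miR-150-5p (119, 104 and 95.4 CPM) was not called. Of the 2 endocrine markers, miR-375-3p had 11.4, 17.7 and 9.41 CPM and was called lower in IR than in WI, while miR-7a-5p had 15.7, 15 and 14.1 CPM and was not called. The part of any of these cells in the results was not tested, and in bulk tissue fewer cells of a type and less RNA per cell cannot be told apart.

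Other microRNAs of the domain and of other imprinted loci were compared. The 15 rows of the same domain outside the naming rule, such as miR-493, miR-654 and miR-1188, had no reads in any library. Of 10 rows from other imprinted loci, 6 had reads and none was called in any comparison. MiR-335-5p, from Mest, had 273, 368 and 280 reads, or 68.9, 75.6 and 73.2 CPM. MiR-335-3p had 92.9, 79.1 and 74.0 CPM. The miR-675 arms of H19 had 0 reads, and of the miR-483 arms of Igf2 only miR-483-3p had a read, 1 in Sham.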

How the data were processed

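The authors deposited raw counts of reads per mature microRNA for 3 small RNA libraries (Sham, WI, IR). Before deposit they removed adaptors, kept short reads, aligned them with Bowtie 0.12.7 and counted microRNAs with miRDeep2. Their methods name mm9 and the labels mm10. Alignment allowed a mismatch and kept only best matches, and the methods name no molecular identifiers, so copies made by PCR count as reads.

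Counts were scaled by TMM (edgeR 4.0.16, R 4.3.3; factors 1.03, 0.961 and 1.01 for Sham, WI and IR). Log2 fold changes were taken on log2(CPM + 0.1), which understates changes of rare microRNAs, and their SE is counting error. Fisher's exact test (two-sided, scipy 1.17.1) was applied to every microRNA with a read in either library, with the study's criteria (over 1.5-fold, p under 0.01). Sums have 95% exact Poisson or conditional binomial intervals and no p. The quasi-likelihood test needs replicates. The procedure was tested on simulated data with counting noise only and large changes in rows with at least 30 reads. That test does not cover rarer members, smaller changes or spread between animals. The naming rule uses names only, but the rule, the lists and the tests were chosen with earlier results of these data known. Named rows are the 25 members with most reads and every called member; further rows were named after their values were seen. Positions are RefSeq GRCm38, and exon or intron is GENCODE on NCBIM37.

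Samples were grouped by their titles, with 1 library a group, so p-values measure only how far 2 libraries differ beyond counting. Alternatives were other scalings (DESeq2 size factors, library totals, genome-aligned totals given by the study, totals without the 10 most abundant microRNAs), other thresholds, a pseudocount of 1 CPM, thinning to the smallest total and an assumed spread between animals.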

Additional observations from a re-analysis of the deposited data

How the results depend on the processing

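No paired analysis was possible because each group has 1 library, and for the same reason no replicate could be left out. Alternatives for the sums of the stretches were chosen after seeing the data. Members called in WI against Sham, 1 as reported, were 2 with DESeq2 (1.42.0) size factors, 2 with library totals and 2 when the 10 most abundant microRNAs were left out of these, and 0 at over 2-fold and at a variation of 0.2 or 0.4, assumed as the coefficient between animals in the exact test of edgeR. In IR against WI, 9 became 5 with genome-aligned totals, 5 at over 2-fold, 3 at a variation of 0.2 and 0 at 0.4. In IR against Sham, 4 became 2 at over 2-fold, 2 at 0.2 and 0 at 0.4. Detected rows fell from 60 to 30 when 3 reads in a library were required.

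Genome-aligned totals moved the median of all microRNAs with at least 10 reads to 0.19, -0.36 and -0.16 on the log2 scale for WI over Sham, IR over WI and IR over Sham. A scaling shifts all microRNAs of a comparison by nearly the same amount, members included. The summed log2 ratios in that order became -0.02, 0.37 and 0.36 over all members. With TMM scaling, the summed ratio for IR against WI was 0.84 without miR-1247. For the Rtl1 stretch the ratios became 0.09, 0.38 and 0.47 with genome-aligned totals. With TMM scaling and without miR-127-3p they were 0.25, 0.55 and 0.80. For the Mirg cluster the ratios with genome-aligned totals became 0.73 (IR against WI) and 0.34 (IR against Sham). For the Dio3 end without miR-1247-5p, the ratios with TMM scaling were -2.65 (IR against WI) and -2.21 (IR against Sham).

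Of 375 recomputed values of named members, 352 kept direction and call, 10 lost a call, 7 gained a call and 6 changed sign, none of them called. With genome-aligned totals miR-127-3p, miR-434-5p and miR-379-5p became 0.02, 0.01 and 0.05 in WI against Sham, and miR-136-3p and miR-485-3p became -0.08 and -0.10 in IR against Sham, where miR-485-3p was -0.01 without the 10 most abundant.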
